A study of Danio rerio with 24 samples.

Results

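The circadian clock genes of the zebrafish heart ventricle, taken copy by copy, were described from one deposited value per gene, its mean normalised count over samples. They were chosen by symbol alone, as every listed gene whose name is that of a period, cryptochrome, BMAL (arntl), CLOCK, REV-ERB (nr1d), ROR, PAR bZIP (tef, dbp, hlf), nfil3, DEC (bhlhe40, bhlhe41), ciart, casein kinase 1 delta or epsilon, or timeless gene. The rule found 48 of the 18987 listed genes, under 47 symbols. One of them, tefm, is annotated as a mitochondrial transcription elongation factor, was reached only because its symbol begins like tef, and is no clock gene. Its mean normalised count was 55.3. The clocka symbol stands on 2 rows with separate identifiers, ENSDARG00000011703 with 153.7 and ENSDARG00000097598 with 1.98 mean normalised counts, and the first was used wherever copies were compared.

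The series holds 24 samples of adult wild-type zebrafish, each an RNA pool of 3 or 4 ventricles freed of atrium and bulbus arteriosus. The fish came from a local supplier, and their strain and age are not given in the sources used here. The hour of sampling and the light cycle are not given either, so the means hold for an unknown time of day. Exercised cryoinjured fish, which were made to swim in a tunnel during recovery from a freezing injury to the ventricle, gave 4 samples at 7 days post-injury (dpi) and 4 at 14 dpi. Non-exercised cryoinjured fish, kept at rest after the same injury, gave 4 samples at 7 dpi and 4 at 14 dpi, and non-exercised sham-operated fish gave 4 at each time as well. The value used is the authors' mean normalised count, the reads assigned to a gene after scaling each sample for depth, averaged over the samples of their model. Which samples entered that mean is not named, and no value of a single sample was used, so the groups could not be compared and neither an SD nor a depth per sample can be given. The fold changes and p-values of exercised against non-exercised fish that stand in the same table are the authors' own comparisons and were not used. Because several ventricles, and the cells of each, were pooled, more cells of a type and more RNA per cell cannot be told apart in these means.

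The vertebrate clock is a transcriptional feedback loop. BMAL and CLOCK proteins bind E-box elements as pairs and activate the period and cryptochrome genes, whose products return to the nucleus and repress that activation. REV-ERB and ROR nuclear receptors form a second loop by repressing and activating BMAL transcription through shared elements, while PAR bZIP proteins activate and NFIL3 represses through the D-box. In zebrafish, peripheral organs such as the heart hold clocks that light can set directly, and an ancient duplication of the fish genome left many of these genes in paired copies.

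The clock genes lay mostly above the median listed gene. Their median mean normalised count was 268.8, against 79.6 for all listed genes. Of the 48 rows, 35 (72.9%, 95% exact Clopper-Pearson interval 58.2 to 84.7%) were above the median listed gene. The 48 rows include tefm and the second clocka row, and each of these lay below it. Together the 48 rows held 0.224% of all normalised counts, and the lowest and highest were 1.98 and 3961. The interval treats genes, paired copies included, as separate draws from a list and carries no error between fish. Most other lists read here also lay mostly above that median, with 29 of 30 rows of other genes that act on the clock, 3 of 3 epicardial and 3 of 4 leukocyte genes. The only pineal and retinal gene found lay below it. These lists were chosen by hand and are no background for the clock genes. Whether the share is particular to clock genes was not tested, and nothing particular to them is read from it. A mean normalised count grows with the length of the transcript as well as with its abundance, and it was not divided by length, so that the counts of separate genes are set side by side as reads and not as transcript levels.

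**Figure D1:**
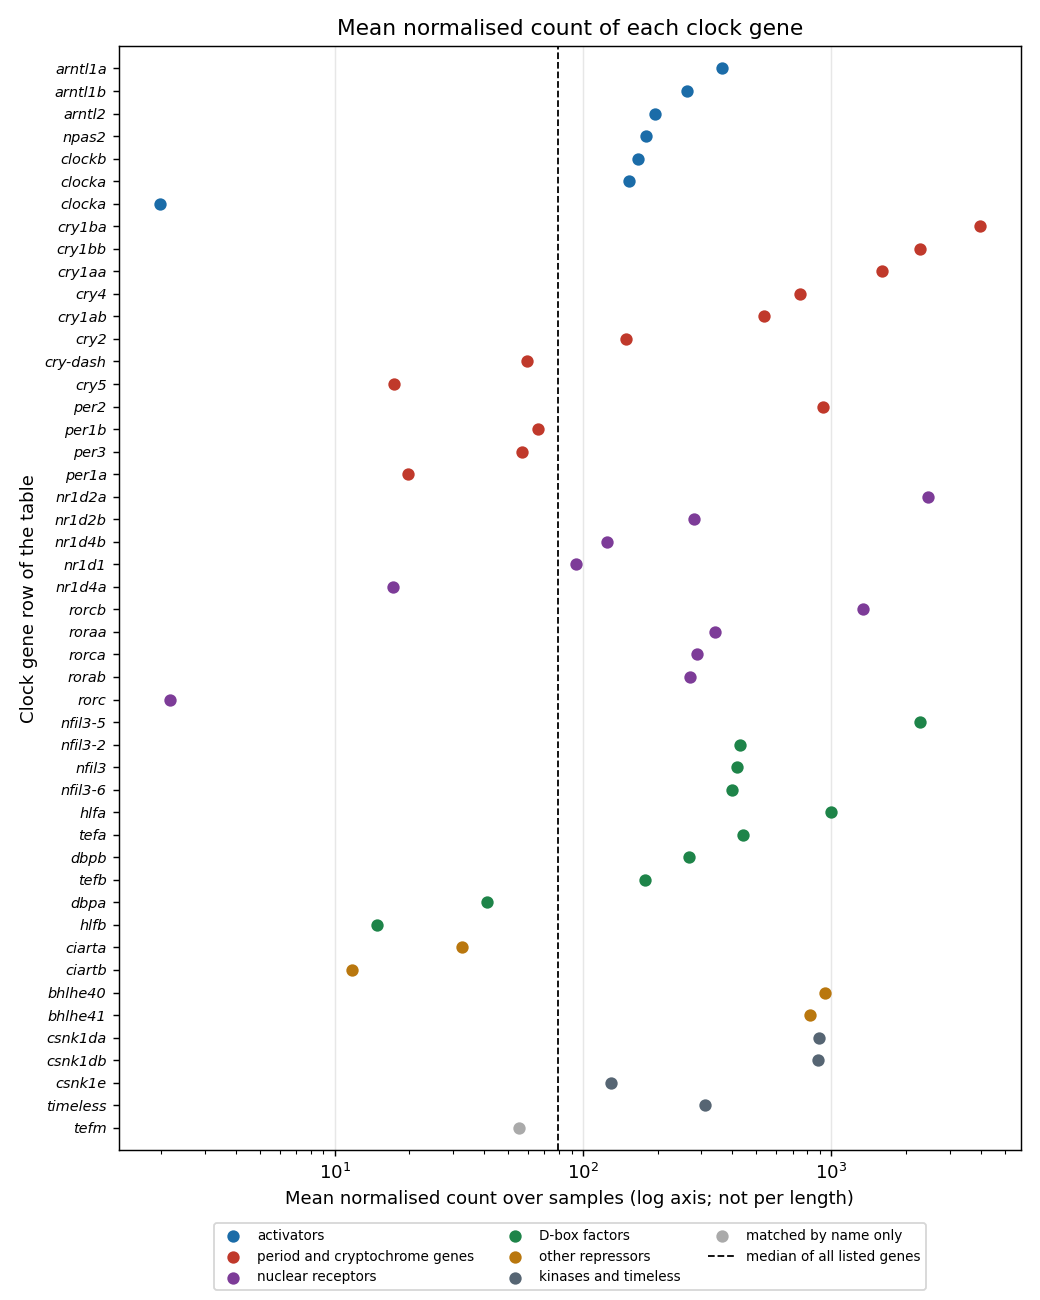
Mean normalised count over samples of the 48 rows found by the rule, tefm included, on a log axis. Rows are grouped by role from the activators at the top to the row matched by name only, tefm, at the bottom. Each row has 1 point, and the median of all listed genes (79.6) is a dashed line. The cryptochromes cry1ba and cry1bb lie at the right with 3961 and 2285, and the second clocka row and rorc at the left with 1.98 and 2.17.

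The activators spanned a narrow range. Of the BMAL genes, whose proteins pair with CLOCK, arntl1a had 362.1, arntl1b 263.6 and arntl2 194.6 mean normalised counts. The CLOCK side of the pair was similar among its copies, with 153.7 for clocka, 167.4 for clockb and 178.8 for npas2, a close relative that can take the place of CLOCK in mammals. Leaving out the second clocka row, all 6 activators thus lay above the median listed gene. None was among the upper 10% of listed genes, which held 13 of the 48 rows found by the rule. With so few genes, nothing particular to the activators is read from this count. No copy of BMAL or CLOCK dominated its family, the largest share of BMAL reads being the 44.1% of arntl1a.

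The period genes, in contrast, were carried almost wholly by one member. The per2 gene, a period repressor that light induces in zebrafish, had a mean normalised count of 928.8 and held 86.7% of all period reads. The other members were per1a with 19.7, per1b with 65.7 and per3 with 57.1, all below the median listed gene. In these means, the period genes other than per2 thus had few reads each. Whether the same holds at other hours or under other light was not tested.

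The cryptochromes held more reads than any other family of the clock genes, 9358 of the 26521 summed over the 48 rows. With 8 genes, they were also the largest family. By the median gene, casein kinase 1 with 885.2 and the DEC genes with 883.8 lay above the cryptochromes with 643.8. The highest of all members was cry1ba, with 3961 mean normalised counts and above 98.1% of listed genes, followed within the family by its copy cry1bb with 2285. RefSeq names these copies cry3a and cry3b. The cry1aa gene, a repressor that light induces in zebrafish, had 1599, and its copy cry1ab had 538.6. The cry4 gene had 749.0 and cry2 had 148.6. Much lower were cry-dash with 59.8 and cry5, a photolyase that repairs DNA damaged by ultraviolet light, with 17.3. Both of these, the cryptochrome relatives that repair DNA, were below the median listed gene, whereas the other 6 were above it. No link with DNA repair is read from so few genes, and photolyase genes outside the rule were not looked up.

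Among the nuclear receptors, each subfamily had one copy with most of its reads. The nr1d2a gene, which codes for a REV-ERB repressor, had 2450 mean normalised counts and 82.6% of the REV-ERB reads. Its copy nr1d2b had 281.0, and nr1d1, the REV-ERB best known in mammals, had 93.8. The fish genes nr1d4a and nr1d4b had 17.2 and 125.2. For the ROR activators, rorcb led with 1340 and 59.8% of ROR reads, with rorca at 287.3, roraa at 341.1 and rorab at 270.6. The row listed as rorc had 2.17, which is too low for any statement about it.

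The D-box factors included both activators and repressors. Of the PAR bZIP activators, hlfa had 998.6 mean normalised counts and 51.5% of that family's reads, whereas its copy hlfb had 14.8. The thyrotroph embryonic factor genes tefa and tefb, known in zebrafish for their response to light, had 440.2 and 177.7. The albumin D-site binding protein genes dbpa and dbpb had 41.1 and 267.0. Of the NFIL3 repressors, nfil3-5 had 2282 and 64.6% of the family's reads. The remaining nfil3, nfil3-2 and nfil3-6 had 419.1, 430.8 and 400.1 and were thus nearly equal.

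The further repressors separated by family. The DEC genes bhlhe40 and bhlhe41, which repress from E-boxes, had 948.8 and 818.7 mean normalised counts. The ciarta and ciartb genes, named for the circadian repressor CIART, had 32.7 and 11.7, and both were below the median listed gene. The casein kinase 1 genes, whose enzymes phosphorylate period proteins and mark them for decay, had 897.8 for csnk1da, 885.2 for csnk1db and 129.9 for csnk1e. The timeless gene, best known in vertebrates for its part in DNA replication, had 309.1.

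To describe how evenly paired copies shared reads, the count of the higher copy was divided by that of the lower for the 14 pairs whose symbols differ only in a last letter a or b. The ratio was above 2 in 9 of the 14 clock pairs (64.3%), with a median of 2.88. Of the 1430 other such pairs in the table with both copies at a mean of at least 10, the limit that both copies of every clock pair also passed, 64.1% had a ratio above 2, with a median of 2.85. The clock pairs as a whole thus shared their reads about as unevenly as other pairs, and nothing particular to them is read from the counts. The a copy was the higher in 9 of the 14 clock pairs, against 743 of those 1430 other pairs.

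The single pairs differed widely. The most unequal was hlfa and hlfb, in which hlfa had 67.6 times the reads of hlfb. Since the counts were not divided by length, this is a ratio of reads and not of transcripts. Next came nr1d2a over nr1d2b with a ratio of 8.72, nr1d4b over nr1d4a with 7.26, dbpb over dbpa with 6.49 and rorcb over rorca with 4.66. At the other end, csnk1da and csnk1db had a ratio of 1.01, clockb and clocka 1.09, roraa and rorab 1.26, and arntl1a and arntl1b 1.37. The order within these near-equal pairs cannot be settled, because the means carry no error and small differences in length would turn it. The remaining ratios were 3.34 for per1b over per1a, 2.97 for cry1aa over cry1ab, 2.78 for ciarta over ciartb, 2.48 for tefa over tefb and 1.73 for cry1ba over cry1bb. How reads shared between near-identical copies were assigned could move each of these ratios, and this was not tested.

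**Figure D2:**
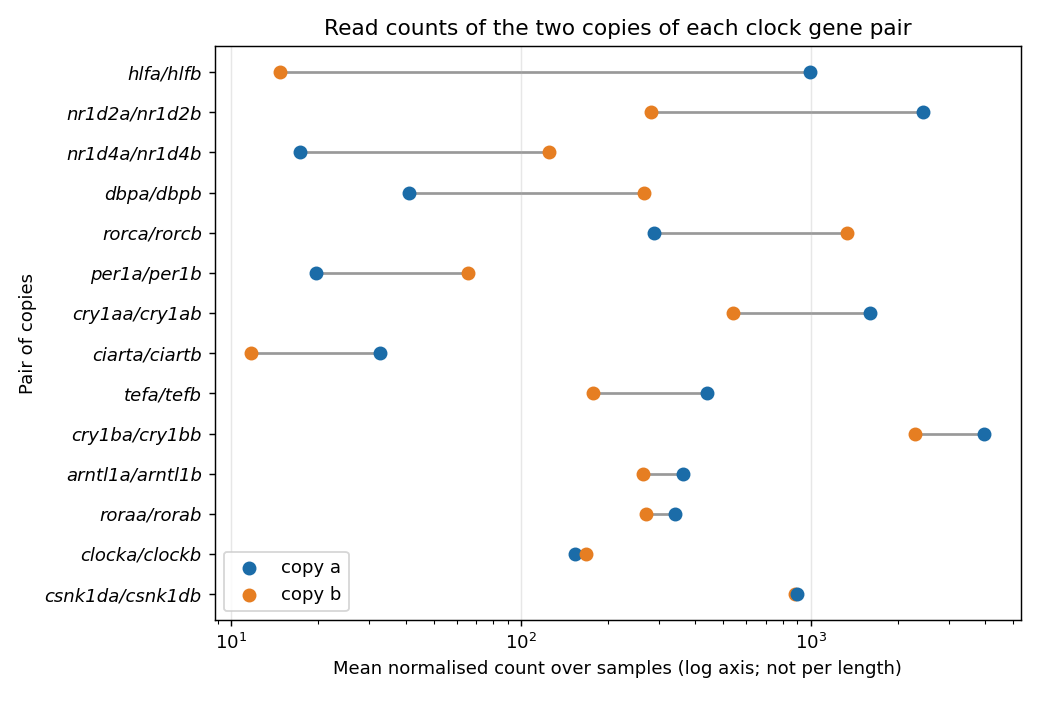
Mean normalised count over samples, on a log axis, of copy a (blue) and copy b (orange) of the 14 clock gene pairs, joined by a line and ordered with the most unequal pair at the top. The copies lie 67.6-fold apart for hlfa and hlfb and nearly on one another for csnk1da and csnk1db, with a ratio of 1.01.

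The genes on either side of each copy were read from the RefSeq annotation of the assembly GRCz12tu, which was used for gene order only since the reads were aligned to GRCz10. In 5 of the 14 clock pairs (35.7%), both copies had protein-coding neighbours whose symbols differed only in a last letter a or b. The share was 26.9% of 3226 other pairs in the annotation, matched by symbol alone. Those pairs did not need to be among the listed genes, whereas the clock pairs did and were placed by symbol or synonym. No excess among the clock pairs is read from these shares, and none was tested. The arntl1a and arntl1b genes adjoin btbd10a and btbd10b, cry1aa and cry1ab adjoin btbd11a and btbd11b, and per1a and per1b adjoin pcolcea and pcolceb. The rorca gene adjoins sh3gl1b, and rorcb adjoins sh3gl1a. The nr1d4a and nr1d4b genes lie between copies of the retinoic acid receptor gamma gene (rarga, rargb) and of calcoco1. Among the clock genes themselves, nfil3-2 and nfil3-6 were the only ones to adjoin each other. Their counts were close, as given above, but that of nfil3, which adjoins neither, lay between them.

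The copy with more reads was not always next to the neighbour with more reads. For arntl1a over arntl1b the neighbours leaned the same way, with mean normalised counts of 384.7 for btbd10a and 298.6 for btbd10b. Both differences are small, and the order of the arntl1 copies cannot be settled, as said above, so no direction is read there. Beside cry1aa and cry1ab the neighbours also leaned the same way, with 46.4 for btbd11a and 12.8 for btbd11b. In the other 3 pairs the neighbours leaned the opposite way. Next to per1a, the lower period copy, pcolcea, which codes for an enhancer of procollagen processing, had 825.2, whereas pcolceb next to per1b had 2.30. The count of pcolceb is below the mean of 10 used as a limit for pairs, so only the direction is read there. Beside the lower copy nr1d4a, calcoco1a had 907.8, against 26.3 for calcoco1b beside nr1d4b, and beside the lower copy rorca, sh3gl1b had 200.9, against 10.6 for sh3gl1a beside rorcb. Of the other neighbours of the nr1d4 pair, rarga beside nr1d4a had 781.1, and rargb was not among the listed symbols. These 5 pairs are a description, with no test.

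**Figure D3:**
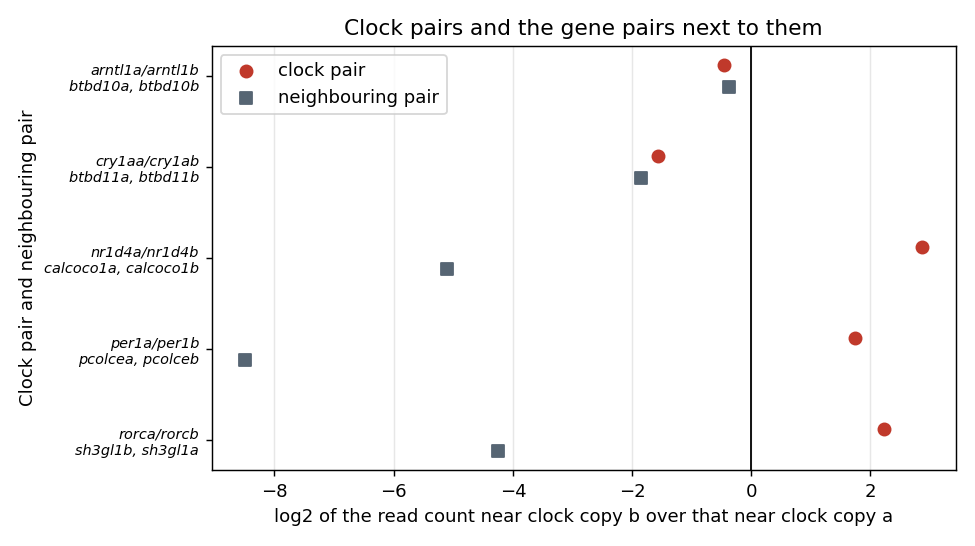
Log2 of the mean normalised count on the side of clock copy b over that on the side of clock copy a, for 5 clock pairs (circles) and for the neighbouring gene pair (squares), so that points right of 0 have more reads on the b side. Circle and square lie on the same side of 0 for the arntl1 and cry1a pairs and on opposite sides for the per1, nr1d4 and rorc pairs. The arntl1 copies are nearly equal, and no direction is read for them.

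Other genes that act on the clock were read from a separate list of 33 symbols, of which 29 were found, on 30 rows. They had a median mean normalised count of 442.3, and 29 of the 30 rows were above the median listed gene. The exception was cipca, named for a CLOCK-interacting repressor, with 9.81, whereas its copy cipcb had 339.6. The highest was cirbpb, a cold-inducible RNA-binding protein gene that follows temperature rhythms in mammals, with 15792. The genes fbxl3a and fbxl3b, whose products direct cryptochromes to decay, had 331.8 and 298.8. The corepressor gene ncor1, which REV-ERB proteins recruit, had 2767.

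The labelled tissue was checked against marker genes. Cardiomyocyte genes were among the highest, with 163295 mean normalised counts for myl7, which is expressed in both chambers. The ventricular myosin gene vmhc had 37309, against 3281 for the atrial myosin gene myh6. The natriuretic peptide genes did not follow that order, since nppa, listed for the atrium, had 25667 and nppb, listed for the ventricle, had 2389. The authors describe nppa as usually high in the atrium, and also as a gene that responds to injury and is expressed in the injured area. Of the 24 samples, 16 were cryoinjured, and which samples entered the mean is not named. RNA of the atrium is thus shown neither to be present nor to be absent by these markers. The 3 genes listed for smooth muscle of the outflow, which includes the bulbus arteriosus, were all above the median listed gene. They had 1749 for tagln, 421.7 for acta2 and 335.1 for elnb. Whether these reads come from the bulbus arteriosus was not tested. Markers of other cells were present as well. The red blood cell genes hbaa1 and alas2 had 25133 and 4339, and hbba1 was not among the listed symbols. The 3 endothelial genes had 1017 to 3550, the 3 epicardial genes had 111.9 to 250.2, and the 4 leukocyte genes had 16.3 to 319.1. Of 4 pineal and retinal genes, 1 was found among the listed symbols, aanat2 with 23.9. The part of these cell types in the counts of the clock genes was not tested.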

How the data were processed

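RNA from pooled ventricles was sequenced after poly-A capture in 24 samples. Per the labels, the submitters' processing notes name TopHat2 2.1.0, HTSeq 0.6.0 and DESeq2 with the genome build GRCz10. The deposited value used, a signal of the kind the authors obtain by dividing read counts by size factors, is 1 mean per gene over their samples. Its remaining number columns hold the authors' fold changes, standard errors, test statistics, p-values and adjusted p-values for exercised against non-exercised fish, and were not used. The listed means sum to 11824275. With 0 columns that belong to a single sample, the depth of each library is unknown, and no test between groups was run.

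Members were matched by symbol and ranked among all 18987 listed genes. The members and lists were chosen with earlier results of these data known. Every member is named, each with its mean. Where a symbol had several rows, the row with the largest mean was used for pairs. Of the members, 46 had their identifier in the table of gene names, and all 47 symbols matched RefSeq (GRCz12tu) by symbol or synonym. Division by coding or transcript length, protein identity, promoter motifs and printed sequences had been planned and were not run, since no sequences or transcript lengths were used here. The pairing by symbol, the ratio of copies and the neighbour search were checked on simulated data, and the other steps were not. Python 3.11.15, pandas 2.3.3, numpy 2.4.6, scipy 1.17.1 and matplotlib 3.10.9 were used.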

Additional observations from a re-analysis of the deposited data

How the results depend on the processing

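Among genes with a mean of at least 10 only, 34 of the 46 rows found by the rule, tefm included, were above the median gene (73.9%). Without tefm and the second clocka row, an alternative chosen after seeing the data, 35 of 46 (76.1%) were. The share of all 48 rows was 72.9%. The number of clock pairs with a ratio above 2 was 9 also with both clocka rows added together, and 6 of the pairs (42.9%) had a ratio above 3, against 48.7% of the 1430 other pairs with both copies at 10 or more, both alternatives being chosen after seeing the data. The neighbour search was also run with 3 protein-coding genes on each side in place of 1, an alternative chosen after seeing the data. Neighbours with paired symbols were then found for 9 of the 14 clock pairs (64.3%), in place of 5. The share of the same 3226 other pairs was 54.1%, and no excess is read here either. The alternatives that divide the mean by transcript or coding length and those on promoter motifs were not run. Counts as deposited, planned as an alternative, became the values reported. Without values per sample, no library could be left out, and no error, batch or replicate could be examined.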
